A study of Mus musculus with 94 samples.

Results

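The genes described here are 35 genes of fibroblasts, of the extracellular matrix and of the organ surface, listed by name. A probe was counted as a member when its gene symbol in the platform annotation was one of the 35, and 33 of the 35 genes had at least 1 probe. These gave 49 of the 25697 probes on the array and 33 of its 16593 named genes, and 10 of the genes had several probes. No probe carried the symbol Fbn1 or Fn1 in the annotation used, so fibrillin-1 and fibronectin were not analysed here.

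Fibroblasts and related mesenchymal cells secrete fibrillar collagens, which are trimmed by proteases, cross-linked by lysyl oxidases and bundled with small leucine-rich proteoglycans into the stroma of an organ. Collagen VI and the fibulins tie these fibres and the elastic fibres to the cell surface and to basement membranes, which have collagens of their own. In spleen and thymus such cells form the capsule, the trabeculae and the vessel walls, and mesothelial cells cover the outer surface of spleen and liver.

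RNA was taken from brain, liver, spleen and thymus of 24 male C57BL/6N mice aged 17 weeks and measured on 94 Illumina bead arrays, 1 per organ and mouse. The mice were labelled homozygous mutants for Hmgn1, Hmgn3 or Hmgn5, genes of nucleosome-binding chromatin proteins, or wild types. Each line had 4 labelled mutants and 4 wild types per organ, except 3 wild types in liver of the Hmgn1 and Hmgn5 lines. Wild types were placed with a line by their mouse numbers, and one wild type of the Hmgn5 line, replicate 3, by elimination. The labels do not give the alleles or any treatment.

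Between 12238 and 16422 probes per array exceeded the noise limit, which lay between 2.46 and 11.1 intensity units, and no 2 arrays were identical. The targeted genes did not all follow the labels. The Hmgn1 probe was not called in any tissue of its line, the 2 Hmgn3 probes were called lower in 6 of 8 tests, and the Hmgn5 probe was called lower in thymus and higher in liver, with no call in spleen (16.3 ± 8.23 in labelled mutants and 25.2 ± 4.20 in wild types, SD, n = 4 each, adjusted p = 0.230). It is unknown here whether these probes lie inside the mutated parts, and the animals are therefore called labelled mutants. The organ markers Mbp in brain, Apoa1 in liver, Cd79a in spleen and Cd3e in thymus were high in their organs. Other probes were not, since that of the T cell gene Cd8a was above noise on no thymus array, that of the neuronal gene Snap25 on 1 of 24 brain arrays and that of albumin on 19 of 22 liver arrays with a median of 55.6. Groups are compared by the deposited intensity, and differences are labelled mutants minus wild types of log2(intensity + 16), a scale that understates the change of dim probes. A probe was called when its adjusted p was under 0.05 (limma, Benjamini-Hochberg over all probes of a tissue).

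In wild types the matrix genes had their highest level in spleen for 18 of the 31 genes tested, in thymus for 7, in brain for 4 (Fbln1, Pdgfra, Sparc and Timp2) and in liver for 2 (Col14a1 and Col18a1), by the brightest probe of each gene. The top tissue was called above the next one for 26 of 44 probes, and it was the same in all 3 lines for 29. For these counts and for the top tissues, the share of all tested probes is not given here. The top and the next tissue did not pass the test for Pdgfra (brain and spleen, adjusted p = 0.766), Fbln1 (brain and thymus, 0.428), Col14a1 (liver and spleen, 0.286), Col6a2 (spleen and thymus, 0.643) or Dcn (thymus and liver, 0.693), among others. Levels across tissues were compared after the wild-type arrays had been quantile-normalized together, so these intensities differ from the deposited ones given further on. Of 44 probes tested, 40 differed between tissues by limma's F test, beside 85.5% of all 21430 probes tested. Between spleen and thymus, 21 probes were called higher in spleen and 9 lower, beside 45.4% of all probes called in either direction. Of the 9733 probes called there in all, 4404 were higher in spleen. Against spleen, 33 probes were called lower in liver and 4 higher, beside 63.8% of all probes called (6633 of 13663 higher in liver). Against spleen again, 29 were called lower in brain and 4 higher, beside 68.1% called (6967 of 14603 higher in brain). Thymus was above brain for 26 probes and below it for 6 (68.5% of all probes called, 6665 of 14680 higher in brain). Thymus was above liver for 28 and below it for 4 (64.4%, 6575 of 13798 higher in liver). Brain and liver had 16 higher each (67%, 6825 of 14351 higher in brain).

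Among the basement membrane collagens, Col18a1, which encodes the precursor of endostatin, had the widest range of the tested probes. The brighter of its probes (ILMN_2735184) had intensities of 3670, 4187 and 5040 (lowest, median and highest of 10 arrays) in liver, against 216, 271 and 362 in spleen, with 12 arrays each in spleen, brain and thymus. Brain gave 169, 206 and 219, and thymus 128, 205 and 265, so that no array of another organ came near the liver values. The order was liver, spleen, brain and thymus, and the last 2 did not differ (adjusted p = 0.910). Col4a1 and Col4a2, the common basement membrane chains, were highest in spleen instead, and Col15a1 was highest in thymus.

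Bgn, the small proteoglycan biglycan, had 1891, 2710 and 3594 in spleen (lowest, median and highest), 935.7, 997.4 and 1150.0 in liver, 261, 453 and 763 in thymus and 156, 206 and 259 in brain. Every neighbouring pair in that order was called, the closest with an adjusted p of 2.04e-11. Loxl1, a lysyl oxidase that cross-links elastin, followed another order, with 629, 758 and 969 in spleen, 115, 194 and 274 in thymus, 50.6, 67.1 and 88.0 in liver and 41.2, 52.8 and 67.5 in brain. Its liver and brain levels missed the threshold (adjusted p = 0.0501). Mgp, an inhibitor of matrix calcification, was highest in thymus (616, 857 and 1646) and lowest in liver (24.0, 46.0 and 64.9). Timp2, an inhibitor of matrix metalloproteinases, was highest in brain (2180.0, 2489 and 3266) and lowest in liver (121, 165 and 198).

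Upk3b, a uroplakin gene known as a marker of mesothelium, was at 180, 224 and 352 in spleen and 131, 263 and 492 in thymus (ILMN_2941714), which did not differ from each other (adjusted p = 0.704). It was at 35.4, 57.6 and 76.9 in liver, and in brain 4 of 12 arrays were above noise. Igfbp6, which encodes an insulin-like growth factor binding protein, was highest in spleen (85.0, 138 and 253) and above noise on 1 of 10 wild-type liver arrays. Dpt, which encodes dermatopontin, a decorin-binding protein, was above noise on none of the 12 wild-type brain arrays, and Lox and Gsn, the genes of lysyl oxidase and of the actin-severing protein gelsolin, on none of the 10 liver arrays. The smallest range was that of the second Fbln2 probe, 0.14 on the log2 scale, which was at or near noise in every organ. Col5a2 and Postn, the genes of a fibrillar collagen chain and of periostin, stayed under the filter on dim probes in all 4 organs.

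**Figure D1:**
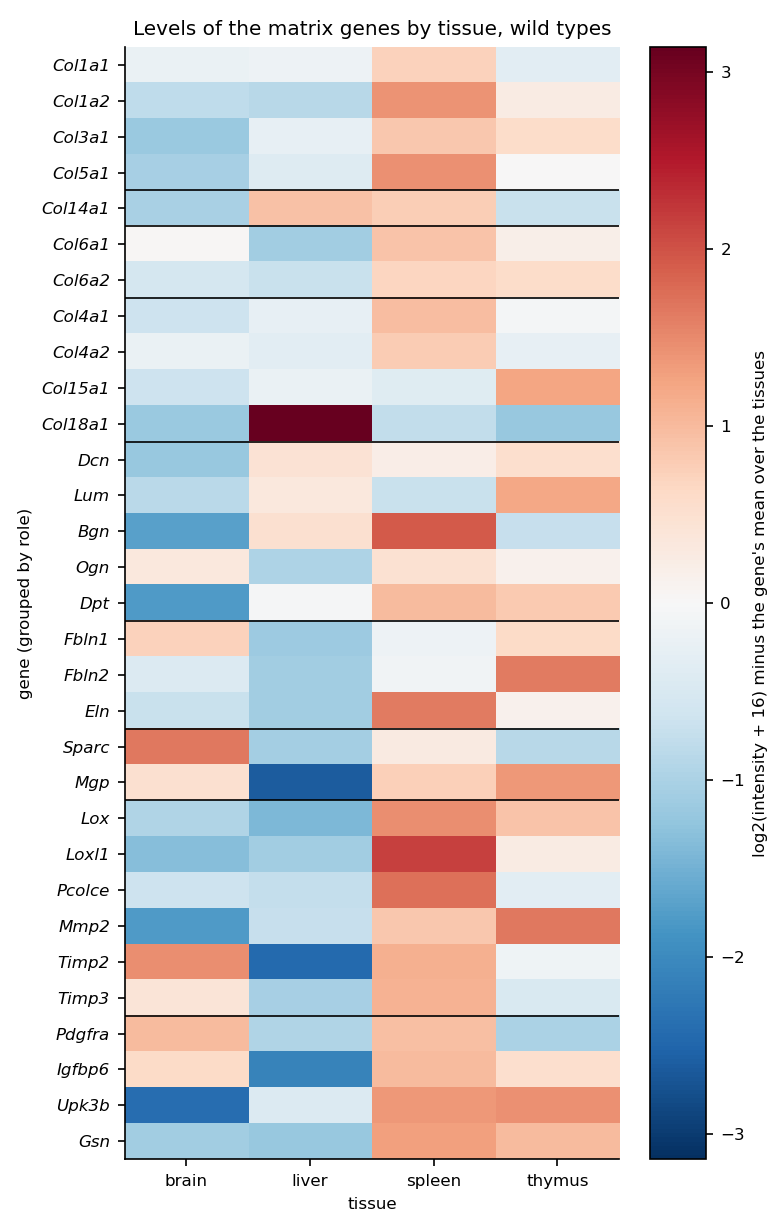
Levels of 31 matrix genes in 4 tissues of wild types (columns), as log2(intensity + 16) of the gene's brightest probe minus its mean over the tissues, with genes grouped by role and parted by lines. Red is above and blue below the gene's own mean, so rows are not compared with each other. The spleen column is red for most genes, and Col18a1 stands out in liver.

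Matrix genes differed between arrays of one group more than other probes did in spleen and thymus. The SD between arrays of a group, as the median of the groups of a tissue, was 0.20 (log2) for the median member in spleen against 0.15 over all tested probes, and 0.25 in thymus against 0.17. In brain the values were 0.19 for members and 0.17 for all probes, and in liver 0.19 and 0.17. Set against the median of probes of like mean level, 35 of 43 member probes were above it in spleen, 37 of 44 in thymus, 25 of 40 in brain and 24 of 36 in liver. No test was made of these spreads. The excess was not particular to the members, since smooth muscle probes were above the like-level median for 92.3% in spleen and 100% in thymus. In thymus, skeletal muscle probes were above it for 94.4% and fat cell probes for 88.9%. Not every list shared the excess. In spleen the share was 48.1% for other fibroblast genes, against 81.4% for members. It was 46.4% there for genes of collagen folding and matrix proteases and 26.7% for endothelial genes. In thymus these lists had 76%, 51.7% and 64.3%, against 84.1% for members.

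The genes with the widest spread in spleen were Upk3b (SD 0.38), Igfbp6 (0.38), Ogn (0.34), Dcn (0.32) and Gsn (0.32), where Ogn and Dcn encode the proteoglycans osteoglycin and decorin. In thymus they were Bgn (0.49), Mgp (0.45), Sparc (0.43), Upk3b (0.40) and Loxl1 (0.38), where Sparc encodes osteonectin. Sparc (ILMN_3136561) shows the size of this spread in thymus of the Hmgn5 line, with 251, 304, 462 and 595 in labelled mutants and 570, 768, 227 and 119 in wild types. The highest and the lowest of those 8 arrays were both wild types. In liver the widest were Col15a1 (0.33), Sparc (0.31), Col3a1 (0.29), Col1a2 (0.29) and Mgp (0.26), and in brain the second Fbln2 probe (0.37), Upk3b (0.34), Col1a1 (0.33), the dimmer Timp3 probe (0.28) and Lox (0.28). Of those in brain, the Fbln2 and Upk3b probes were at or near noise.

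**Figure D2:**
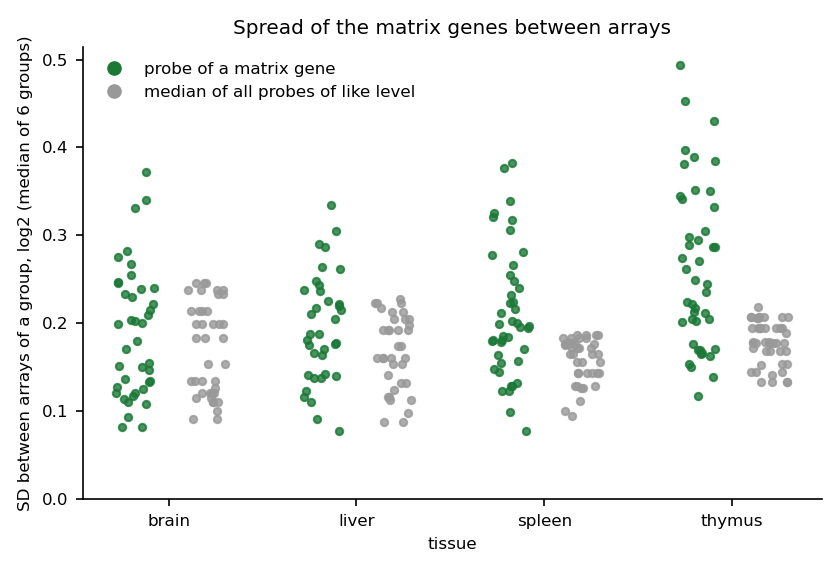
Spread between arrays of a group (median SD of the groups of a tissue, log2 scale, vertical axis) by tissue, for each probe of a matrix gene in green and for the median of all probes of like mean level in grey. Green points reach 0.49 in thymus and 0.38 in spleen, above every grey point there.

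Of the 12 comparisons of labelled mutants with wild types, spleen of the Hmgn5 line had the most member probes called. In labelled mutants 6 of 43 member probes rose and 0 fell, beside 0.513% of all 18519 tested probes called higher, and the 6 belong to Upk3b with 2 probes, Col6a2, Igfbp6, Fbln1 and Loxl1. The difference was above 0 for 40 of the 43 probes, with a median of 0.36, against 51.2% of all tested probes and a median of 0.00. In these bulk samples, more or fewer cells of a type and more or less RNA per cell cannot be told apart.

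Upk3b (ILMN_2941714) had intensities of 155, 249, 155 and 237 in labelled mutants, against 57.5, 60.8, 80.1 and 101 in wild types. Every labelled mutant was above every wild type, with means of 198.9 ± 51.2 and 74.9 ± 20.2 (SD, n = 4 each). The log2 difference was 1.24 (SE 0.21, adjusted p = 0.0144), and it was 1.07 for the probe ILMN_2941712 (adjusted p = 0.0317) and 0.67 for ILMN_2941715 (adjusted p = 0.0767).

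Igfbp6 (ILMN_2689790) had 103, 164, 90.1 and 139 in labelled mutants and 27.6, 35.95, 44.6 and 71.6 in wild types. The groups did not overlap, and the log2 difference was 1.22 (SE 0.23, adjusted p = 0.0164). Col6a2, the alpha 2 chain of collagen VI (ILMN_1216661), had 48.7, 60.8, 49.0 and 48.3 in labelled mutants and 18.9, 20.01, 23.7 and 26.0 in wild types. Its groups did not overlap either, with a log2 difference of 0.83 (SE 0.15, adjusted p = 0.0144).

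Fbln1 encodes fibulin-1, a glycoprotein of elastic fibres and basement membranes. Its dimmer probe (ILMN_2728985) had 11.3, 21.8, 14.3 and 17.5 in labelled mutants and 4.13, 6.89, 6.58 and 10.4 in wild types, a log2 difference of 0.48 (SE 0.11, adjusted p = 0.0318). Its brighter probe (ILMN_2870672) had overlapping groups and a difference of 0.47 (adjusted p = 0.215). The offset compresses the dimmer probe's difference more, which was 1.25 with a floor of 1 in its place. Loxl1 had 345, 404, 356 and 419 in labelled mutants and 190, 253, 273 and 292 in wild types, which did not overlap, with a log2 difference of 0.58 (SE 0.14, adjusted p = 0.0383). In all, 7 of the 43 member probes had every labelled mutant above every wild type, beside 4.06% of all tested probes, and none had every labelled mutant below, beside 3.77%.

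The stretches around the transcription starts of 4 of these 5 genes are printed here because the genes moved together, from RefSeq for the build GRCm38.p6, each 300 bases long and 5′ to 3′ on the gene's strand. RefSeq promoter entries were matched for 24 of the 35 genes, and Loxl1 is named only. The TATA box was searched as TATAAA and the box bound by NF-Y as CCAAT. The GC box bound by Sp1 was searched as GGGCGG and the AP-1 site as TGANTCA, each on both strands. Where 2 starts were listed (Col6a2 and Fbln1) the one farther downstream is shown. Capitals mark matches on either strand to 4 motifs, where 2 matches may overlap, as in Col6a2. The Upk3b stretch is chr5:136038246-136038545 (plus strand), that of Igfbp6 chr15:102143936-102144235 (plus), that of Col6a2 chr10:76623355-76623654 (minus) and that of Fbln1 chr15:85205758-85206057 (plus).
Upk3b: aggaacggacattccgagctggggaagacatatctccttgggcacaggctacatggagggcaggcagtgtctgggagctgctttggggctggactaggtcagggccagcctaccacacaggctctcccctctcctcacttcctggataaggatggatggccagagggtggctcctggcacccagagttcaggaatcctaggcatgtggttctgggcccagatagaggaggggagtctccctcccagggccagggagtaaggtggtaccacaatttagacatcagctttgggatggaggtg
Igfbp6: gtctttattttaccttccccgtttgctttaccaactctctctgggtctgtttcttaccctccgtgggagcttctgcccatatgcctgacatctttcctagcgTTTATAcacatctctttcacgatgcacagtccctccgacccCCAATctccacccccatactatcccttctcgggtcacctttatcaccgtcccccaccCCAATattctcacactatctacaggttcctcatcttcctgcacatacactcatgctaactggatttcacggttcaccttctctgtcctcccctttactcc
Col6a2: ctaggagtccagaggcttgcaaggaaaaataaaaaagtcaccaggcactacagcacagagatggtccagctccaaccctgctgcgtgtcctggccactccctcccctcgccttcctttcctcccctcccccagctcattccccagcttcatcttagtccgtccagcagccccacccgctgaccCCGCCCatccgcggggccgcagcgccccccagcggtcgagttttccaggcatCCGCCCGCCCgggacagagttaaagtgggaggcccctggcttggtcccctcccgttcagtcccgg
Fbln1: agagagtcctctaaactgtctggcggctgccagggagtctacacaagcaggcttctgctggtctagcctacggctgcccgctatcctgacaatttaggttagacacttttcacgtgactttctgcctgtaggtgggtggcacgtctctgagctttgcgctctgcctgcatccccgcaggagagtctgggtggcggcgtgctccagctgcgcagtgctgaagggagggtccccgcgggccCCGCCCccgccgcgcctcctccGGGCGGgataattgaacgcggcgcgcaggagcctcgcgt
The 4 stretches shared no motif of the search. Igfbp6 held 1 match to TATAAA, which 13.6% of all 32851 promoters hold, and 2 to CCAAT, which 37.4% hold. Col6a2 held 3 and Fbln1 2 matches to GGGCGG, which 35.7% of all promoters hold, and Upk3b held none of the motifs. TGANTCA, which 7.81% of promoters hold, was in none of the 4. A match is a description of the letters in this window.

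By role, the fibrillar collagens were higher by smaller steps and none was called. Their log2 differences were 0.38 for Col1a1 (27.6 ± 4.89 in labelled mutants and 17.7 ± 6.69 in wild types, adjusted p = 0.116), 0.34 for Col1a2, 0.38 for Col3a1 and 0.20 for Col5a1. The fibril-associated collagen gene Col14a1 had 0.05. Col6a1, the partner chain of Col6a2, missed the threshold with 2 of its probes (0.56 with adjusted p = 0.0571 for the brighter and 0.56 with adjusted p = 0.0561), and the third probe, at noise, had 0.03.

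Of the basement membrane collagens, Col15a1 had 0.45, Col4a2 0.12 and Col4a1 0.04, and the brighter Col18a1 probe had -0.30, the lowest of the 43 (61.0 ± 11.9 in labelled mutants and 79.1 ± 19.2 in wild types, adjusted p = 0.343). Among the proteoglycans, Dcn had 0.68 (866 ± 327 in labelled mutants and 520.4 ± 132 in wild types, adjusted p = 0.0934), Ogn 0.57, Lum, the gene of lumican, 0.43, and Bgn 0.02, while their partner Dpt had -0.10. Fbln2, a relative of Fbln1, had 0.58 and Eln, the gene of elastin, 0.36.

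Mgp had 0.57 (adjusted p = 0.0510) and Sparc 0.23. Pcolce, which enhances the trimming of procollagen, had 0.33, Mmp2, a gelatinase, 0.38, and Lox 0.20. Timp2 had 0.09 and the brighter probe of Timp3, its relative, -0.05. Pdgfra, a receptor that marks fibroblasts, had 0.03, and Gsn 0.38. Without adjustment, 21 member probes were higher with p under 0.05, beside 7.6% of all tested probes, and 1 was lower.

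**Figure D3:**
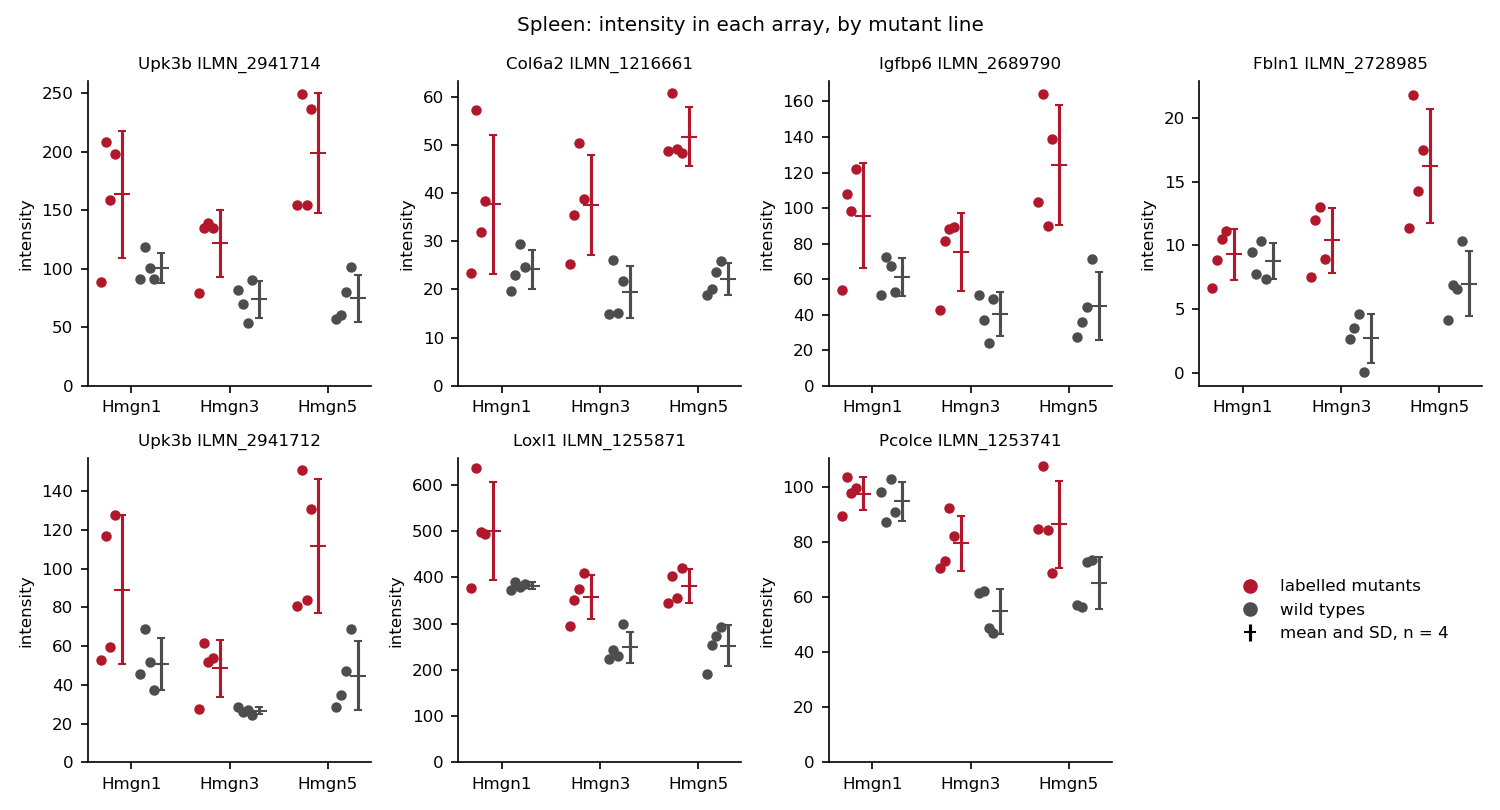
Intensity (vertical axes) in each spleen array of the 7 member probes called in any comparison, with labelled mutants in red to the left of wild types in grey for each line, and mean and SD (n = 4) beside the points. In the Hmgn5 line the 2 Upk3b probes and the Col6a2, Igfbp6, Fbln1 ILMN_2728985 and Loxl1 probes have every labelled mutant above every wild type.

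The number of called probes rested on single arrays. It was 0 without the second wild type or the fourth labelled mutant, 1 without the second labelled mutant, 2 without the first wild type, 3 without the third wild type and 11 without either the fourth wild type or the first labelled mutant, while the median over members stayed between 0.27 and 0.42. With the arrays of this line alone in the fit, 2 member probes were called. The share of all tested probes called in these fits is not given here.

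Other lists of genes were read on the same arrays. The smooth muscle list (Acta2, Myh11 and others) had 12 of 13 probes higher with none called (5 at unadjusted p under 0.05), a median of 0.25, and summed intensities of 4540 to 6937 in labelled mutants and 3673 to 5072 in wild types. Of the mesothelial list, 10 of 12 probes were higher with none called (3 at p under 0.05), a median of 0.15 and sums of 120 to 209 in labelled mutants and 106.5 to 141.5 in wild types. Its gene Upk1b, the uroplakin partner of Upk3b, had 24.0 ± 7.47 in labelled mutants and 9.89 ± 2.89 in wild types without overlap (0.61, adjusted p = 0.163). The mesothelial markers Krt19 and Msln had 0.47 and 0.41 (adjusted p = 0.0889 and 0.132) at levels near noise, Wt1 had 0.03, and the Krt18 probe was not above noise on any of these arrays. The fat cell list had 5 of 7 probes higher with none called (3 at p under 0.05), with Adipoq, the adiponectin gene, at 0.75 (adjusted p = 0.362). These lists moved with the members in part, and their part in the result was not tested.

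Pancreatic acinar genes, which belong to the organ attached to the spleen, differed far more between arrays. Their summed intensity was 60.2, 28170, 55.6 and 5311 in labelled mutants and 23050, 701.5, 5992 and 6349 in wild types. They were lower in labelled mutants for 14 of 14 probes, with none called or at unadjusted p under 0.05. Left out by a rule chosen after the values were seen, the arrays with this signal leave the first and the third labelled mutant against the second wild type, a lone array that the fit assumes to vary like the other groups. The member median was then 0.44, and 0 members and 1 probe in all were called.

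The other matrix genes followed less clearly. Of 43 probes of further collagens, laminins and matrix glycoproteins, 31 were higher and none was called, with a median of 0.09 and 12 of unadjusted p under 0.05. Ltbp4, which anchors latent TGF-beta to the matrix, had, for its brightest probe, 329 ± 28.7 in labelled mutants and 231 ± 48.0 in wild types (0.50, adjusted p = 0.0701). Genes of collagen folding and matrix proteases had 19 of 28 probes higher (median 0.09), other fibroblast genes 19 of 27 (0.11) and TGF-beta signalling genes 12 of 19 (0.01), with none called and 5, 5 and 2 at unadjusted p under 0.05. Of the endothelial list, 5 of 15 probes were higher, and a probe of Flt1, a VEGF receptor, rose, its other probe being at noise (236 ± 23.6 in labelled mutants and 140.5 ± 29.1 in wild types, 0.70, adjusted p = 0.0144).

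In spleen of the Hmgn3 line 3 member probes rose and none fell, beside 0.832% of all tested probes called higher. Fbln1 (ILMN_2728985) had 7.56, 12.01, 13.1 and 8.94 in labelled mutants and 2.63, 3.53, 4.61 and 0.05 in wild types, of which 3 were above noise. The groups did not overlap, and the log2 difference was 0.50 (SE 0.11, adjusted p = 0.0215). Pcolce (ILMN_1253741) had 70.6, 73.1, 92.4 and 82.4 in labelled mutants and 61.5, 62.5, 48.7 and 47.2 in wild types, again without overlap (0.43, SE 0.11, adjusted p = 0.0387).

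Col6a2 had 25.3, 35.4, 50.4 and 38.8 in labelled mutants and 14.8, 26.0, 15.2 and 21.7 in wild types, where the first labelled mutant lay within the wild types (0.58, SE 0.15, adjusted p = 0.0436). In all, 33 of 43 probes were higher with a median of 0.15, and 6 had every labelled mutant above every wild type, beside 3.79% of all probes. Upk3b (ILMN_2941714) had 79.1, 134.7, 139.0 and 135.0 in labelled mutants and 82.1, 69.7, 53.9 and 90.1 in wild types. The first labelled mutant was again among the wild types, as it was for Igfbp6 (42.6 beside 24.4 to 51.04). The call count was 0 without the first or second wild type or the third labelled mutant, 1 without the third wild type or the fourth labelled mutant, and 8 without the first labelled mutant. It was 6 with the replicate number as a block, although these numbers belong to different mice and are not known to pair them. With the arrays of this line alone it was 0. The share of all tested probes called in these fits is not given here.

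Of the member probes, 15 were higher at unadjusted p under 0.05, beside 7.59% of all probes. Smooth muscle probes were higher for 12 of 13 in this line (median 0.37, sums of 5669 to 7422 in labelled mutants and 4762 to 5967 in wild types), with none called (6 at p under 0.05), and pancreatic acinar probes were higher for 14 of 14 with none called (median 0.60, sums of 89.5 to 8983 in labelled mutants and 71.7 to 1148 in wild types). Their part in the result was not tested. Of 27 probes of other fibroblast genes, 18 were higher (median 0.05), and 5 had an unadjusted p under 0.05. Called among the 27 were 1 probe each of Igfbp4, Htra3 and Pdgfrb, a receptor of pericytes and fibroblasts. These 3 rose (0.68, 0.55 and 0.72, adjusted p = 0.0179, 0.0212 and 0.0307). The brightest Ltbp4 probe rose by 0.71 (adjusted p = 0.0165), and the dimmest of 3 probes of Mmp3, a stromelysin gene, fell by 0.44 on the log2 scale (adjusted p = 0.0495). Second probes gave smaller differences, 0.18 for Igfbp4, 0.08 for Htra3, 0.47 for Ltbp4 and 0.16 for Mmp3, none of them called.

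In spleen of the Hmgn1 line no member was called, beside 1.08% of all tested probes called higher and 3.09% in either direction. Of the 43 probes, 36 were higher with a median of 0.18, 11 of them with unadjusted p under 0.05 beside 8.81% of all probes, and no probe had groups without overlap, beside 4.77% of all probes with every labelled mutant above. The smallest adjusted p among members was that of the Upk3b probe (ILMN_2941715), with 30.2 ± 12.1 in labelled mutants and 13.2 ± 3.09 in wild types (0.62, adjusted p = 0.0670). Upk3b ILMN_2941714 had 88.9, 208, 159 and 198 in labelled mutants and 91.7, 119, 100.4 and 91.6 in wild types, so that the first labelled mutant was below every wild type and the other 3 were above. Loxl1 had 377, 636, 498 and 494 in labelled mutants and 372, 391, 380.1 and 386 in wild types. Without the first labelled mutant, 9 member probes were called higher, and the share of all tested probes called in that fit is not given here. Msln, a marker of mesothelium, rose in this line from a wild-type level near noise (13.2 ± 4.98 in labelled mutants and 3.30 ± 2.10 in wild types, 0.59, adjusted p = 0.0243). Of the mesothelial list as a whole, 9 of 12 probes were higher (median 0.07, 2 at unadjusted p under 0.05). For smooth muscle, 12 of 13 probes were higher (median 0.30). Pancreatic acinar probes were higher for 14 of 14 with none called (median 0.67, sums of 116, 120.4, 60990 and 22840 in labelled mutants and 9711, 185, 20350 and 194 in wild types). The part of such cells was not tested.

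The lines share no wild types, and 28 of the 43 member probes were higher in labelled mutants of all 3 lines in spleen, beside 23.7% of all tested probes. The difference between the lines itself was called for no member by limma's F test (smallest adjusted p = 0.795), beside 0.0162% of all probes. At unadjusted p under 0.05 there were 4 members, beside 929 of all 18519 probes. The deposited scale differed between the lines. The upper quartile of the first wild-type spleen array was 48.1, 29.2 and 26.5 in the Hmgn1, Hmgn3 and Hmgn5 lines. A fixed offset compresses equal fold changes to different degrees on such scales, which limits comparisons of size between lines. In brain, liver and thymus the lines also differed for no member with adjusted p under 0.05, beside 0.00521%, 0.172% and 0.0494% of all probes. At unadjusted p under 0.05 there were 5 of 40 members in brain beside 1895 of all 19196 probes, 11 of 36 in liver beside 1491 of 15732, and 0 of 44 in thymus beside 856 of 18202. On the scale of the median over the 43 probes, the spleen arrays of the Hmgn5 line deviated from the mean of their line by 0.04, 0.30, 0.10 and 0.27 in labelled mutants and by -0.31, -0.32, -0.14 and 0.06 in wild types. Those of the Hmgn3 line deviated by -0.07, 0.18, 0.16 and 0.21 in labelled mutants and by -0.04, -0.07, -0.15 and -0.10 in wild types. Those of the Hmgn1 line deviated by -0.17, 0.23, 0.05 and 0.22 in labelled mutants and by -0.10, -0.04, -0.14 and -0.14 in wild types. In each line the array of the first labelled mutant was the lowest of the labelled mutants, and the groups overlapped. The same arrays were the lowest labelled mutants of their line for the smooth muscle and mesothelial lists.

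**Figure D4:**
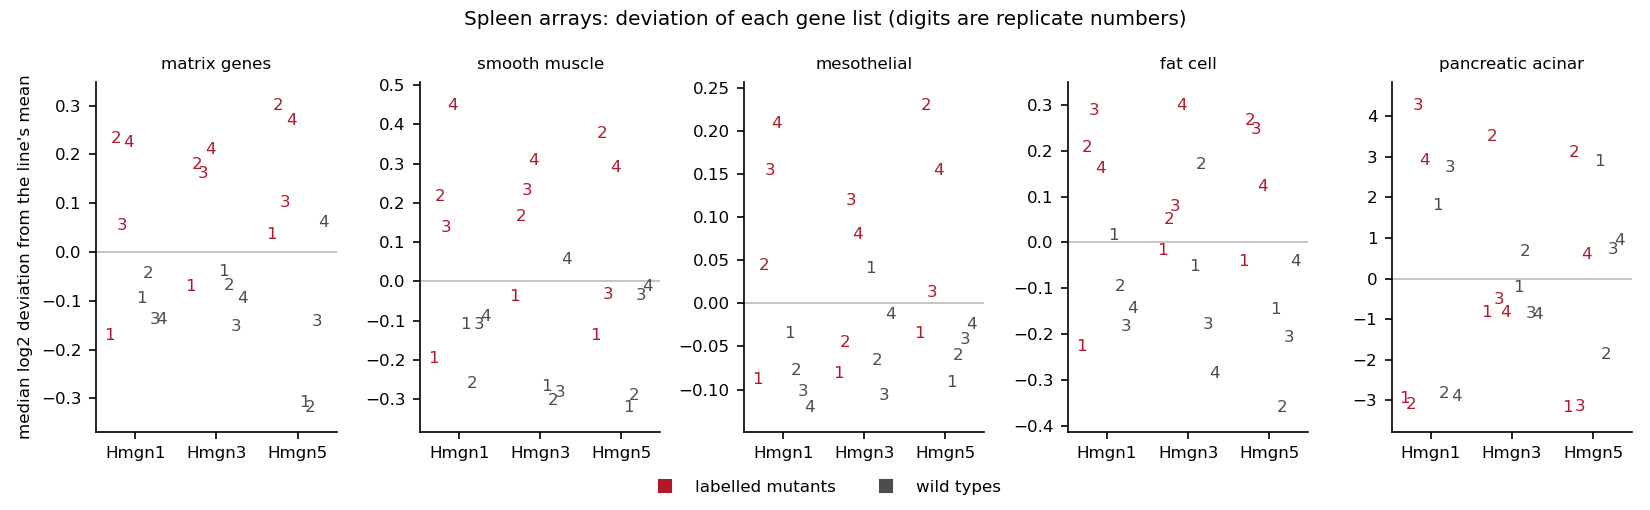
Deviation of each spleen array (digits are replicate numbers, labelled mutants in red to the left of wild types in grey) from the mean of its line, as the median over the probes of a list on the log2 scale, for the matrix genes and 4 marker lists. Labelled mutant 1 is the lowest red digit of each line for the matrix, smooth muscle and mesothelial lists, and the acinar list spans a far wider range.

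In thymus no member was called in any line. In the Hmgn1 line 36 of 44 probes were higher (median 0.17), beside 0.0494% of all 18202 tested probes called in either direction, with 5 members at unadjusted p under 0.05 beside 8.37% of all probes. In the Hmgn3 line 38 of 44 were higher (median 0.15), beside 0.011% called, with 4 at p under 0.05 beside 6.31%. In the Hmgn5 line 31 of 44 were higher (median 0.11), beside 0.0934% called, with 2 at p under 0.05 beside 9.14%. In all 3 lines together, 25 of the 44 were higher, beside 16% of all probes.

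Fbln1 (ILMN_2870672) had the smallest p in thymus of the Hmgn1 line, with 132, 151, 138 and 135 in labelled mutants and 77.4, 70.3, 104 and 127 in wild types. The groups did not overlap, as for 3 member probes in all beside 2.71% of all probes, and the log2 difference was 0.52 (SE 0.19, adjusted p = 0.454). Upk3b (ILMN_2941712) had 0.73 and Igfbp6 0.60 there (adjusted p = 0.481 and 0.484). In the Hmgn3 line Dcn (ILMN_2747959) had 673, 919, 635 and 785 in labelled mutants and 589, 528, 393 and 529 in wild types, without overlap (0.55, SE 0.19, adjusted p = 0.544), as for 5 member probes beside 1.86%. Fbln1 (ILMN_2870672) had 0.43 in that line (adjusted p = 0.740). An Ogn probe (ILMN_2740622) was not well above background in any wild type there. Its means were 3.97 in labelled mutants and -0.14 in wild types, a difference that was not called (adjusted p = 0.742). In the Hmgn5 line Ogn (ILMN_2859613) had 0.66, Upk3b (ILMN_2941712) 0.63 and Fbln1 (ILMN_2728985) 0.55 (adjusted p = 0.313, 0.521 and 0.550), all with overlapping groups. No member probe had groups without overlap in that line, beside 1.2% of all probes with every labelled mutant above.

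Markers of other cells were read on the same thymus arrays. Of 18 skeletal muscle probes, 18 were higher in labelled mutants of the Hmgn3 line (median 1.20, sums of 480.2 to 9079 in labelled mutants and 220.5 to 1223 in wild types), 15 in the Hmgn1 line (median 0.29, sums of 680 to 7644 in labelled mutants and 600.8 to 1402 in wild types) and 4 in the Hmgn5 line (median -0.32). Smooth muscle probes were higher for 13, 12 and 11 of 14 in the Hmgn1, Hmgn3 and Hmgn5 lines (medians 0.48, 0.29 and 0.20). Fat cell probes were higher for 7, 9 and 7 of 9 (medians 0.14, 0.35 and 0.30), endothelial probes for 5, 11 and 14 of 14 (medians -0.09, 0.11 and 0.23) and mesothelial probes for 10, 7 and 4 of 10 (medians 0.34, 0.08 and -0.08). None of these probes was called (8 skeletal muscle probes of the Hmgn3 line and 4, 1 and 0 smooth muscle probes at unadjusted p under 0.05), and their part in the member values was not tested.

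In liver no member was called. In the Hmgn1 line 10 of 36 probes were higher (median -0.15), beside 0.0318% of all 15732 tested probes called, and 7 had an unadjusted p under 0.05 beside 8.09% of all probes, of which 6 were lower. Dcn (ILMN_2596346) had 457 ± 153 in labelled mutants (n = 4) and 659.9 ± 229 in wild types (n = 3), with a log2 difference of -0.52 (adjusted p = 0.514). Loxl1 and Col4a1 had every labelled mutant below every wild type (-0.36 and -0.27, adjusted p = 0.514 each), beside 3.55% of all probes, and none had every labelled mutant above, beside 3.85%. In the Hmgn3 line 27 of 36 were higher (median 0.10), beside 0% of all probes called, and 3 had p under 0.05 beside 4.86%. Bgn had the smallest p, with 760.0 ± 15.3 in labelled mutants and 618 ± 43.1 in wild types (SD, n = 4 each) without overlap (0.29, adjusted p = 0.826), as for 3 member probes beside 1.92%. Col5a1 had 0.27 and Lum 0.26 there (adjusted p = 0.911 and 1).

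In liver of the Hmgn5 line 25 of 36 probes were higher (median 0.14), beside 0.42% of all probes called, and 8 had p under 0.05 beside 11.1%. Col15a1, a collagen of vascular basement membranes, had 11.8, 15.96, 3.11 and 11.9 in labelled mutants and 34.4, 29.8 and 22.4 in wild types. Every labelled mutant was below every wild type, as for 2 member probes beside 4.91%, and the log2 difference was -0.76 (SE 0.23, adjusted p = 0.179). Fbln2 and Timp3 had 0.49 and 0.29 without overlap (adjusted p = 0.238 and 0.261), as for 4 member probes above beside 5.67%.

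Macrophage markers lay in the direction of the members in liver of the Hmgn1 and Hmgn3 lines. In the Hmgn1 line 1 of 11 macrophage probes was higher (median -0.55, 8 at unadjusted p under 0.05), with sums of 1629 to 2836 in labelled mutants and 2774 to 3716 in wild types. In the Hmgn3 line 9 of 11 were higher (median 0.41, 6 at p under 0.05), with sums of 540.4 to 801 in labelled mutants and 375 to 540.0 in wild types. The list of stellate cells, the matrix-producing cells of liver, had 0, 4 and 5 of 6 probes higher in the Hmgn1, Hmgn3 and Hmgn5 lines (medians -0.17, 0.18 and 0.15). Endothelial probes were higher for 4, 12 and 6 of 14 (medians -0.07, 0.13 and -0.03). None of these probes was called, and their part in the member values was not tested.

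Col15a1 was the member whose difference between labelled mutants and wild types of the Hmgn5 line differed between tissues, by limma's F test with the mouse as a random block (adjusted p = 0.0279), where 1 of 42 members was called beside 0.314% of all 20381 probes. In spleen it had 15.5, 16.8, 12.2 and 8.28 in labelled mutants and 2.03, 3.01, 6.87 and 9.60 in wild types, a difference of 0.45. The spleen difference minus the liver difference was 1.22 (adjusted p = 0.0079). With a floor of 1 in place of the offset, no member was called in this test. No member was called in the same test of the Hmgn1 line (smallest adjusted p = 0.142, beside 0.365% of all probes called) or the Hmgn3 line (0.25, beside 0.154%). At unadjusted p under 0.05 these tests had 10 of 44 members beside 2914 of all 20574 probes, and 9 of 45 beside 2269 of 20815.

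In brain no member was called and the directions were mixed. In the Hmgn1 line 15 of 40 probes were higher (median -0.03), beside 0% of all 19196 tested probes called, with 3 at p under 0.05 beside 3.87%, 1 with every labelled mutant above (2.14%) and 2 below (2.08%). In the Hmgn3 line 24 of 40 were higher (median 0.05), beside 0.0104% called, with 5 at p under 0.05 beside 10.7%, 1 with every labelled mutant above (1.44%) and 1 below (1.96%). In the Hmgn5 line 17 of 40 were higher (median -0.04), beside 0.0208% called, with 2 at p under 0.05 beside 8.95%, none with every labelled mutant above (2.52%) and 3 below. Only 3 of the 40 were higher in all 3 lines, beside 8.7% of all probes.

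Col6a2 had the smallest p among members in brain, with 38.1, 63.0, 68.7 and 33.7 in labelled mutants of the Hmgn3 line and 27.4, 20.2, 34.1 and 18.8 in wild types. The fourth labelled mutant lay within the wild types, and the log2 difference was 0.68 (SE 0.17, adjusted p = 0.188). Mmp2 and Lum had 0.28 and 0.29 in that line (adjusted p = 0.308 and 0.336). In the Hmgn1 line Ogn (ILMN_2740622) had 13.3 ± 3.31 in labelled mutants and 4.45 ± 3.47 in wild types, of which 1 of 4 was above noise (0.53, adjusted p = 0.832), and Fbln2 had 65.1 ± 13.3 in labelled mutants and 86.5 ± 13.0 in wild types (-0.34, adjusted p = 1). In the Hmgn5 line the Gsn probe was not well above background in any wild type and above noise in 3 of 4 labelled mutants. Its means were 9.57 in labelled mutants and 1.48 in wild types, a difference that was not called (adjusted p = 0.509). Dcn (ILMN_2747959) was at 1343 ± 67.6 in labelled mutants and 1753 ± 232 in wild types of that line without overlap (-0.37, adjusted p = 0.511), as for 3 member probes below beside 2.15% of all probes.

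**Figure D5:**
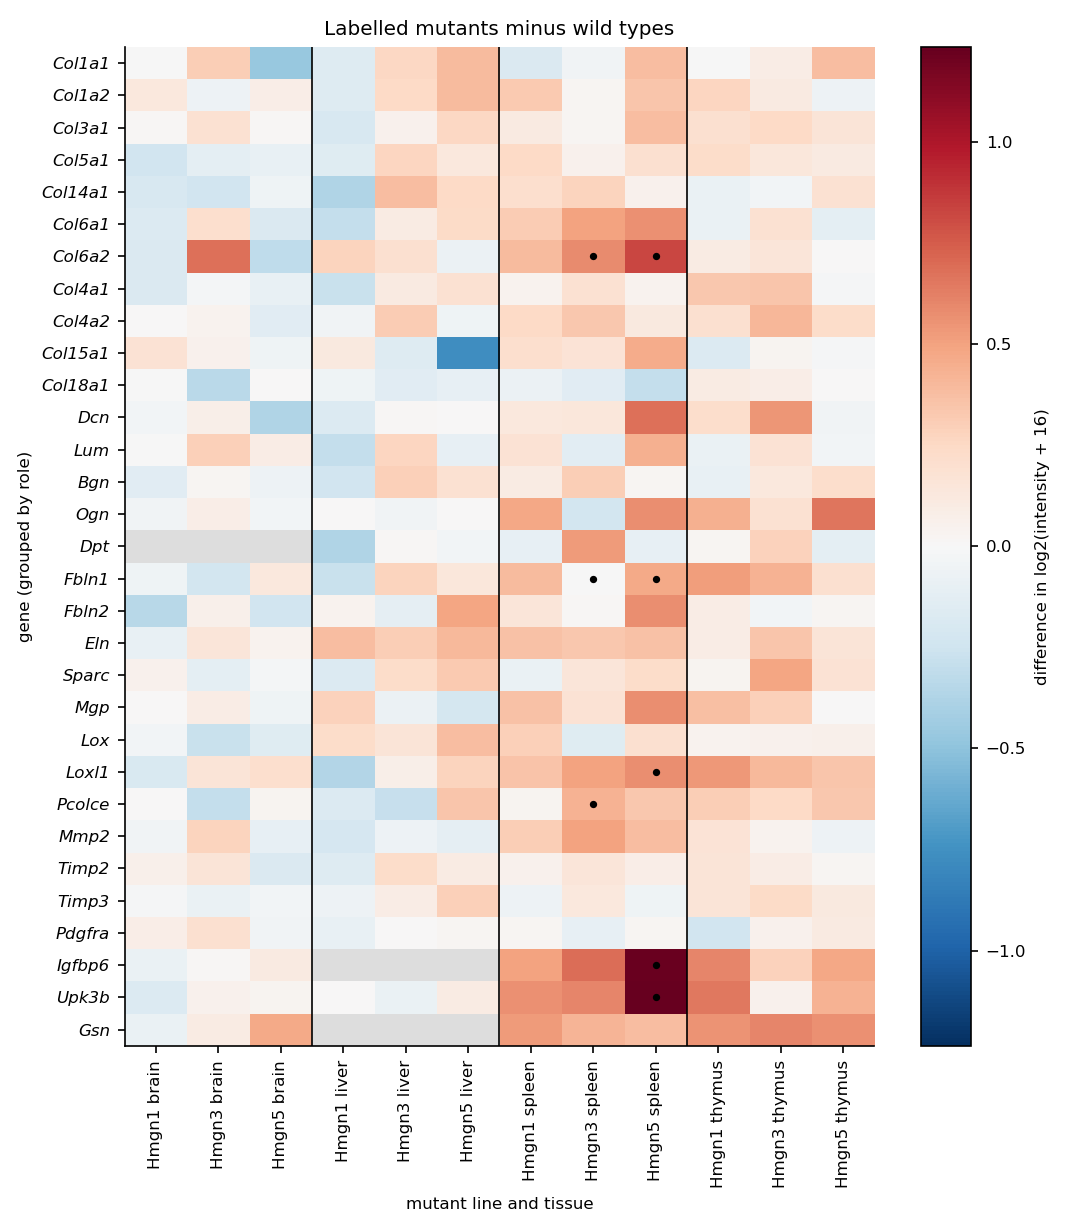
Difference between labelled mutants and wild types in log2(intensity + 16) for the brightest probe of 31 matrix genes (rows, grouped by role) in 12 comparisons (columns, by tissue and line), with grey where that probe was not tested. Dots mark genes with any probe called, which for Fbln1 is a dimmer probe than the one coloured. Dots are found in spleen of the Hmgn5 and Hmgn3 lines only, and red fills most of the spleen and thymus columns.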

How the data were processed

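RNA from 94 organ samples was extracted with Trizol and RNeasy and hybridised as biotin-labelled cRNA to Illumina bead arrays, per the labels. The intensity values used here are those the authors deposited. Their scale differs between the sets of a line and tissue and some values lie below 0, so they were taken as normalized within each set and background-subtracted before deposit. The submitters' processing notes name GenomeStudio 2011.1. How the values were normalized was not given in the sources used here. Of a second table, 188 columns matched no sample's labels and were not used. Names of probes come from the platform annotation.

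Values below 0 were set to 0 and the transform was log2(intensity + 16). The noise limit of an array was 1.64 times the root mean square of its values below 0, and probes above it on at least 3 arrays of a tissue were tested there. Labelled mutants were set against wild types within each line with limma 3.58.1 in R 4.3.3 (lmFit and eBayes over the 6 groups of a tissue, Benjamini-Hochberg over all its tested probes, threshold 0.05). Tissues were compared in wild types after quantile normalization of all their arrays together, with the mouse as a random block. Of these fits, that of spleen, with changes planted in the Hmgn5 line, and the F test of tissues were tried on simulated data. Noise was drawn independently for each probe there, so arrays that shift many probes together were not simulated. The tests of mutant effects between lines or between tissues were not simulated. The number of arrays limits the precision.

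Replicate numbers 1 to 4 recur in labelled mutants and wild types, but they belong to different mice. In 0 of 12 comparisons did every same-numbered pair correlate above 0.1 (range -0.45 to 0.48). The numbers were therefore not used as pairs, although this check cannot exclude a partial pairing or a shared order of handling. Members, lists and tests were chosen with earlier results of these data known. Named were the members called in a comparison, otherwise up to the 3 with the smallest p, in spleen of the Hmgn5 line all tested members, by tissue the widest and narrowest range and members at noise, and by spread the 5 widest. Levels of Bgn, Loxl1, Mgp, Timp2 and Upk3b by tissue and further arrays in spleen were added after their values were seen. Alternatives were an intensity floor, other filters on dim probes, joint normalization of lines, array weights, the replicate block, single lines and each array left out.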

Additional observations from a re-analysis of the deposited data

Results flagged for a closer look

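Of 40 sets of 4 arrays examined, for the member median in every tissue and for the called probes in spleen, 1 held an array far from the rest. Col6a2 (ILMN_1216661) had an intensity of 60.8 in the second labelled mutant of the Hmgn5 line, while the other 3 labelled mutants lay between 48.3 and 49.04. The gap was 0.941 of the group's range. Chance sets apart about 1 in 20 such groups, and without that array 1 member probe was called in spleen of this line.

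Col15a1 (ILMN_1222111) had a difference between labelled mutants and wild types of the Hmgn5 line that was not alike in the 4 tissues (limma's F test, adjusted p = 0.0279). It was 0.45 in spleen and -0.76 in liver on the log2 scale, neither called by itself. In brain the intensities were 57.1, 65.4, 46.9 and 41.02 in labelled mutants and 52.0, 61.0, 52.0 and 52.5 in wild types, and in thymus 77.1, 73.5, 93.7 and 91.0 in labelled mutants and 83.1, 98.6, 87.7 and 71.4 in wild types, with overlapping groups in both.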

How the results depend on the processing

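The count of member probes called in spleen of the Hmgn5 line, 6 as reported, was 2 with a floor of 1 in place of the offset, 10 with the lines quantile-normalized together, 2 with only the arrays of the line, and 0 to 11 with single arrays left out. That of the Hmgn3 line, 3 as reported, was 1 with the floor, 1 without a filter on dim probes, 5 with array weights, 0 with only the arrays of the line, and 0 to 8 with single arrays left out. That of the Hmgn1 line, 0 as reported, was 1 with array weights and 0 to 9 with single arrays left out. The count of members whose difference varied between tissues of the Hmgn5 line, 1 as reported, was 0 with the floor and 2 with array weights. In the 9 comparisons of brain, liver and thymus the count stayed at 0 with each array left out. The alternative without the spleen arrays with pancreatic acinar signal was chosen after the data were seen, and it gave 0 for the Hmgn5 line and 0 for the Hmgn3 line. Fewer arrays or probes entered several of these fits, and the cause of the changed counts was not tested. With single arrays left out or with other processing, the share of all tested probes called is not given here. These counts of members are therefore not set beside it. Each of the 9 called differences in spleen lost its call in 3 to 11 of 16 settings. Pcolce kept it in 5, Col6a2 of the Hmgn3 line and Loxl1 in 6 and Upk3b ILMN_2941714 in 13, none changed sign, and that of Fbln1 in the Hmgn3 line ranged from 0.43 to 1.99.

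With the replicate number as a block, 6 members were called in spleen of the Hmgn3 line and 9 in that of the Hmgn5 line. The numbers belong to different mice and are not known to pair them.

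Groups of 3 or 4 arrays limit these comparisons. Fbln1 ILMN_2728985 and the second Fbln2 probe lie close to the noise limit, where the log2 scale with an offset compresses differences, and probes of one gene differed in level and in call. Organ pieces can carry capsule, fat or pancreas, and the lists read only their marker genes.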

Other observations

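Of the other lists, single genes were called in spleen and in liver of the Hmgn5 line. Lyz2 (ILMN_1252076), the lysozyme gene of myeloid cells, fell in spleen of the Hmgn1 line (2078 ± 1044 in labelled mutants and 3984 ± 541 in wild types, -1.04, limma adjusted p = 0.0313) and of the Hmgn3 line (1557 ± 475 in labelled mutants and 3177 ± 955 in wild types, -1.02, adjusted p = 0.0384). Marco, a scavenger receptor of marginal zone macrophages, rose in the Hmgn3 line (0.57, adjusted p = 0.0212). The macrophage list that holds both had 11 of 13 probes higher in the Hmgn3 line (median 0.24, 6 at unadjusted p under 0.05) and 2 of 13 in the Hmgn1 line (median -0.16). Tgfbr2, a receptor of TGF-beta, fell in spleen of the Hmgn1 line (-0.61, adjusted p = 0.0177), and P4ha1, a collagen prolyl hydroxylase, rose there (0.52, adjusted p = 0.0129). Ltbp3, of the further matrix genes, was also called higher there. In liver of the Hmgn5 line Tpm2 was called higher, in a smooth muscle list with 10 of 12 probes higher (median 0.12). Pck1 of the fat cell list and Amy2a5 of the acinar list were called lower in that liver comparison.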
